A study of Mus musculus and Acomys cahirinus with 84 samples.

Results

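NF-kB is a family of transcription factors that cells use to switch on genes of inflammation, survival and adhesion. Its mRNAs were followed here through 10 genes in cultured skin fibroblasts: the subunits Nfkb1, Nfkb2, Rela and Relb, the inhibitors and feedback genes Nfkbia, Nfkbie, Nfkbiz and Tnfaip3, and the adhesion targets Icam1 and Vcam1. The genes were listed by symbol, with earlier results of these data known. All 10 were found once in the mouse table of 56980 genes, where Ensembl identifiers were matched to symbols, and once in the A. cahirinus table of 19818 genes, whose identifiers are symbols. All 10 passed the filter on low counts in each of the 31 comparisons made.

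The study sequenced stranded polyA mRNA libraries from primary skin fibroblasts of mice labelled C56BL6, of wild mice and of the African spiny mouse A. cahirinus after gamma irradiation. Each population had 7 groups of 4 libraries, 84 in all: 0 Gy (untreated), 10 Gy and 20 Gy at 24 h, these doses again at 12 d, and at 12 d also untreated cells that had been passaged. The untreated and the untreated passaged groups received no irradiation, and no other agent, age or sex is given in the labels. Every 24 h library carried one batch label and every 12 d library another, so the effects of time and of batch cannot be told apart. No test was made between 24 h and 12 d. Within a population, all libraries of a replicate number carry the same animal code in their names, so the 4 libraries of a group were taken as 4 animals, with a doubt for wild mice given below, and p-values measure the spread between them. In bulk RNA, fewer cells of a type and less RNA per cell cannot be told apart.

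In resting cells the NF-kB dimers are held in the cytoplasm by IkB proteins, and receptors of the TNF, interleukin and Toll-like families release them through the IkB kinase complex. Rela with the product of Nfkb1 forms the canonical dimer, and Relb with the product of Nfkb2 the non-canonical one. Many of the pathway's own subunits and inhibitors are known targets of NF-kB, and so are Icam1 and Vcam1, the surface proteins that bind leukocyte integrins.

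The start-site regions of 4 of the genes are shown first, because all 4 are known NF-kB targets and hold letters of the kappaB type. The sequences are the 250 bases before the annotated transcription start in RefSeq, build GRCm38.p6, written 5′ to 3′ on the gene's strand. Of the 10 genes, 6 had an entry (Icam1, Nfkb2, Nfkbia, Nfkbie, Rela and Tnfaip3), with 9 entries in all. Nfkb1, Relb, Nfkbiz and Vcam1 had none. Capitals mark matches, on either strand, to the 10-letter kappaB consensus or to GGAANTTCC, which was added after the sequences had been seen and can overlap the first. The Icam1 region is chr9:21015690-21015939 on the plus strand, Nfkbia chr12:55492648-55492897 on the minus strand, Tnfaip3 chr10:19015411-19015660 on the minus strand and Nfkb2 chr19:46304487-46304736 on the plus strand.
Icam1: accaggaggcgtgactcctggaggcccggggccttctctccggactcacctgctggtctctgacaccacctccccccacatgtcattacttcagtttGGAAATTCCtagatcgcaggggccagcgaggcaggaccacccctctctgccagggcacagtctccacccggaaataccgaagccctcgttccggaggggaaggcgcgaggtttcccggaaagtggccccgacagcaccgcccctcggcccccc
Nfkbia: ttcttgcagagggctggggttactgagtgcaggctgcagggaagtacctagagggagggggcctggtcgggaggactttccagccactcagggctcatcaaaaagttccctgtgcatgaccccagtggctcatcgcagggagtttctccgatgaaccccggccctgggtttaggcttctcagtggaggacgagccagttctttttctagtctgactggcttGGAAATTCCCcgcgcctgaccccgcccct
Tnfaip3: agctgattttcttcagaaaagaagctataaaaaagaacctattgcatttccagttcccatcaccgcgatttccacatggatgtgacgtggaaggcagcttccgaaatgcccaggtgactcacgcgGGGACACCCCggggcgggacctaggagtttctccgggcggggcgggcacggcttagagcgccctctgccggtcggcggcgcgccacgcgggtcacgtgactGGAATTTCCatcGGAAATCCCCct
Nfkb2: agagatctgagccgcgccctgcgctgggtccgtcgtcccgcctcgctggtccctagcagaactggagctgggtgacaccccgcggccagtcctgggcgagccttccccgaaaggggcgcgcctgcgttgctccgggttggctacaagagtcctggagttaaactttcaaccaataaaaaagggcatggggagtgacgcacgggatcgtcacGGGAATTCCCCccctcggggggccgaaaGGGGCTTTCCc
In Icam1 the match GGAAATTCC lay 153 to 145 bases before the start, and in Nfkbia the match GGAAATTCCC lay 29 to 20 bases before it. The Icam1 match was to GGAANTTCC, and Icam1 had 0 matches to the consensus. The Tnfaip3 region shown held 3 matches and the other Tnfaip3 entry 0, and all 3 Nfkb2 entries held at least 1. Nfkbie had 1 match to the consensus and Rela had 0 matches. The consensus occurred in 3.90% of 32851 regions of the same length (1281 regions), GGAANTTCC in 0.813% (267 regions) and either in 4.51%. These matches describe letters in a window of the house mouse genome. They are not measured binding, and no A. cahirinus sequence was used here.

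Some libraries stood apart. All 7 C56BL6 libraries numbered 1 held mRNA of the keratinocyte markers Krt5 (up to 413 CPM, counts scaled to library size) and Krt14 (up to 420 CPM). The sum of 6 keratinocyte markers was 193.0 to 833.9 CPM there, against 1.14 to 3.51 CPM in the libraries numbered 2 to 4. The other listed markers were low in every C56BL6 library. Krt10 was at most 1.94 CPM, Cdh1 0.706 CPM, Epcam 0.136 CPM and Krt1 0.120 CPM. In wild mice the 12 d libraries numbered 1 went against their number. Between them and the 24 h libraries of the same number, 17 genes were above 1 CPM in every library on one side and at 0 in every library on the other. All other same-number pairs had 0 such genes, and so did the 12 d libraries numbered 1 against those numbered 4 at either time. A count of 0 does not by itself mark a shared animal. It was also 0 between C56BL6 numbers 3 and 4 and between all numbers in A. cahirinus. Whether the wild mouse 12 d libraries numbered 1 and 4 come from the same animal was not tested; if they do, those groups hold 3 animals. Values without number 1 are given beside many of the C56BL6 and wild mouse results. The wild mouse 24 h, 10 Gy library numbered 1 also had the lowest depth, 17.4 M counts with 17843 genes detected, and all libraries spanned 17.4 to 52.9 M counts.

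The sum of 8 fibroblast genes was 7610 to 84270 CPM across the 84 libraries. By median its largest members in each population were the collagen genes Col1a1, Col1a2 and Col3a1, so the sum mainly follows collagen mRNA. Among the other genes Lum was low in mice, with a median of 0.475 CPM in C56BL6 and 0.415 CPM in wild mouse libraries. Dcn had medians of 18.9 and 8.92 CPM there and 617 CPM in A. cahirinus. Pdgfra had medians of 177, 498 and 21.4 CPM in C56BL6, wild mouse and A. cahirinus libraries. The sum of 6 endothelial markers was 0.239 to 29.8 CPM, with the defining Cdh5 at most 2.04 CPM, and 8 leukocyte and macrophage markers (7 in the A. cahirinus table) summed to 2.77 to 48.9 CPM, with the defining Ptprc at most 1.22 CPM and at 0 in 9, 14 and 18 of the 28 C56BL6, wild mouse and A. cahirinus libraries. Other members of these lists reached higher levels, Kdr up to 26.45 CPM and Lyz2 up to 27.81 CPM in C56BL6 libraries and Csf1r up to 45.8 CPM in wild mouse libraries. A list of 5 pericyte and smooth muscle markers summed to 334.7 to 2459 CPM. The top of this range was wild mouse number 1 at 24 h, at 2453 CPM untreated and 2459 CPM at 20 Gy. Wild mouse numbers 2 to 4 reached at most 1136 CPM. Myh11 reached 1524 CPM in wild mouse libraries, where its median was 61.3 CPM. The fibroblast sum moved at 12 d. From untreated to 20 Gy cells its mean went from 35940 to 9777 CPM in C56BL6 mice, from 49870 to 18950 CPM in wild mice and from 30700 to 22940 CPM in A. cahirinus, and in passaged cells it was 18670, 29870 and 19660 CPM. The wild mouse range was 10970 to 84270 CPM untreated and 8104 to 26330 CPM at 20 Gy, so these groups overlapped. At 12 d, from 0 to 20 Gy, the mean endothelial sum went from 10.1 to 13.4 CPM in C56BL6 mice, from 7.61 to 8.13 CPM in wild mice (8.54 CPM at 10 Gy, with ranges that overlap throughout) and from 1.27 to 4.16 CPM in A. cahirinus, and the mean leukocyte sum went from 24.1 to 31.9, from 30.3 to 35.9 and from 3.83 to 8.38 CPM. The part of these sums in the results below was not tested.

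Levels between genes were compared per length, as RPKM, which is CPM per kilobase, with the deposited gene lengths, and only within a table. In untreated C56BL6 cells at 12 d, Vcam1 had the highest level of the 10 genes at 53.9 ± 18.02 RPKM (SD, n = 4), followed by Rela at 26.9 ± 0.670 RPKM and Nfkbia at 21.4 ± 11.9 RPKM. Icam1 was at 2.60 ± 0.552 RPKM there and at 0.474 ± 0.0584 RPKM at 24 h, the lowest of the 10 at that time. In untreated wild mouse cells at 12 d, Rela at 29.97 ± 1.92 RPKM and Vcam1 at 29.92 ± 18.5 RPKM headed the order and did not differ beyond their spread, and Icam1 was last at 1.79 ± 0.645 RPKM. Its distance from Nfkbie, at 1.98 ± 0.744 RPKM, was within their spread. The A. cahirinus order was headed by Icam1, at 63.8 ± 46.9 RPKM at 12 d and 79.5 ± 30.97 RPKM at 24 h, while Vcam1 was at 4.88 ± 0.393 and 2.24 ± 0.495 RPKM. At 12 d Rela followed Icam1 at 33.4 ± 1.60 RPKM, within the spread of Icam1. Neighbours in the middle of the order, such as Nfkb2 at 11.3 ± 0.906 RPKM and Nfkbiz at 11.1 ± 3.11 RPKM in C56BL6 cells at 12 d, did not differ beyond their spread.

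The order of the 2 adhesion genes was thus opposite in the 2 tables. Per length, Vcam1 was above Icam1 in 28 of 28 C56BL6 libraries, by 4.75-fold to 103-fold with a median of 24.98-fold, and in 28 of 28 wild mouse libraries, by 1.70-fold to 52.1-fold with a median of 12.0-fold. Icam1 was above Vcam1 in 28 of 28 A. cahirinus libraries, by 6.34-fold to 89.4-fold with a median of 30.98-fold. These ratios rest on the deposited lengths, which were 4360 and 8870 bases for mouse Icam1 and Vcam1 and 2563 and 3458 bases in A. cahirinus. The difference between populations in this ratio was given no test.

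**Figure D1:**
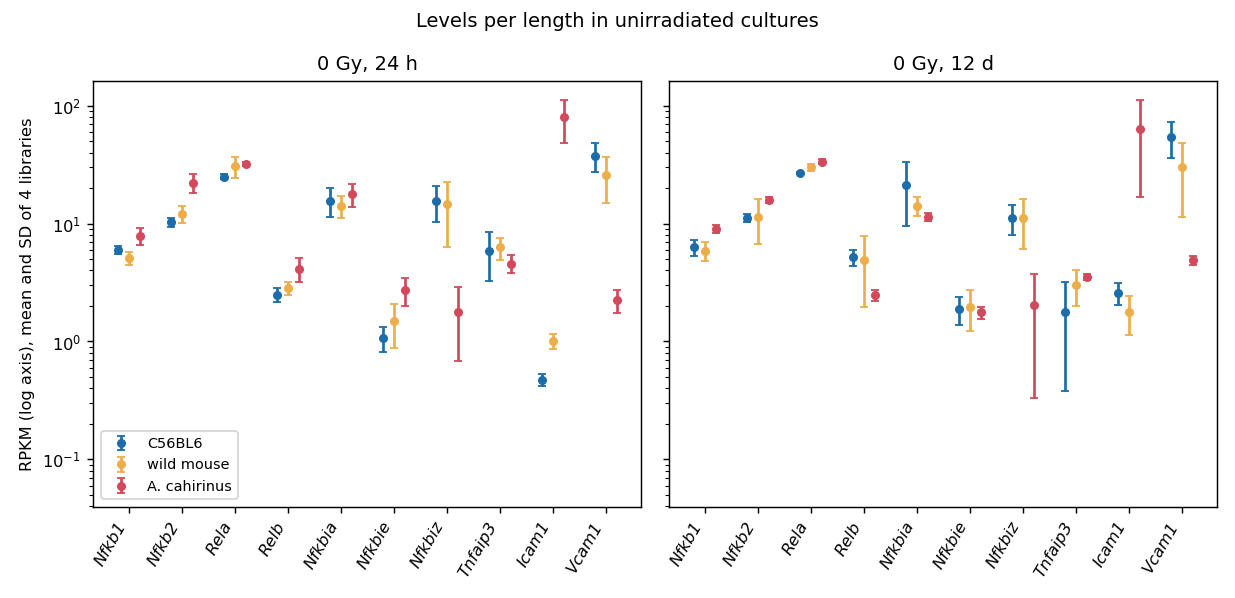
Levels per length (RPKM, log axis) of the 10 genes in untreated cells at 24 h and 12 d, as mean and SD of 4 libraries per population; levels of mice and A. cahirinus come from separately scaled tables. At 12 d Icam1 has the lowest mean in wild mice (1.79 RPKM) and the highest in A. cahirinus (63.8 RPKM), each within the spread of its neighbour in the order. Vcam1 is highest in C56BL6 mice (53.9 RPKM).

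Icam1 was higher in irradiated cells in nearly every pair. Across both doses, both times and all populations, the irradiated library was higher than the untreated library of the same number in 47 of 48 pairs, and the exception was the shallow wild mouse library numbered 1 at 24 h and 10 Gy. These pairs are not independent, since both doses share their untreated libraries and the same animal codes recur at both times. No other of the 10 genes was higher in more than 36 pairs (Nfkb2) or lower in more than 37 (Nfkb1). Calls are from edgeR's quasi-likelihood test with Benjamini-Hochberg adjustment over all genes tested, at a threshold of 0.05, first without and then with the replicate number as a block, since same-numbered libraries deviated together. Shares over all genes stand beside the calls of this test with all numbers. Counts at an unadjusted p, by DESeq2 or with a number left out carry no such share. They describe only how counts move with the processing.

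At 24 h, 0 of the 10 genes passed the test without the block at either dose in any population, where 0.0895% (C56BL6), 0% (wild mouse) and 3.59% (A. cahirinus) of all genes passed at 20 Gy and 0.007%, 0% and 3.73% at 10 Gy. At an unadjusted p under 0.05 the counts at 20 Gy were 1, 1 and 3, and at 10 Gy 1, 0 and 1. DESeq2 called 1, 1 and 0 genes at 20 Gy, and 0 in each population at 10 Gy. With the block, 2, 3 and 5 of the 10 genes passed at 20 Gy, beside 17.6%, 12.5% and 24.1% of all genes, and 2, 0 and 5 at 10 Gy, beside 11.5%, 0% and 27.6%.

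At 12 d and 20 Gy, 2 of the 10 genes rose in C56BL6 cells (26.5% of all genes passed), 0 changed in wild mouse cells (0.0694%, with 1 gene at an unadjusted p under 0.05 and 1 by DESeq2), and 3 rose and 2 fell in A. cahirinus (31.8%). The block gave 7 risen and 1 fallen in C56BL6 cells (47.5% of all genes), 1 risen in wild mouse cells (15.4%) and 4 risen and 2 fallen in A. cahirinus (49.2%). At 10 Gy they were 2, 0 and 0 without the block (20.9%, 0.264% and 2.87%), with 3, 1 and 4 at an unadjusted p under 0.05 and 2, 1 and 3 by DESeq2, and 6, 1 and 4 with it (38.8%, 12.7% and 27.5%). The median log2 fold change of the 10 genes at 20 Gy was 0.33, 0.10 and 0.12, beside -0.013, -0.008 and 0.003 over all genes. Leaving out number 1 gave 7 of 10 calls in C56BL6 cells without the block and 9 with it, leaving out number 2, 3 or 4 gave 0 without the block, and wild mouse cells had 0 without number 1 either way. The share over all genes is not given for these fits, so these counts show only how calls depend on single numbers. In the 20 Gy against 10 Gy comparison 0 of 10 genes passed in every population (0%, 0% and 0.457% of all genes), with 0, 0 and 2 at an unadjusted p under 0.05 and 0, 0 and 1 by DESeq2, and 0, 0 and 4 passed with the block (0.297%, 0.257% and 17.9%).

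**Figure D2:**
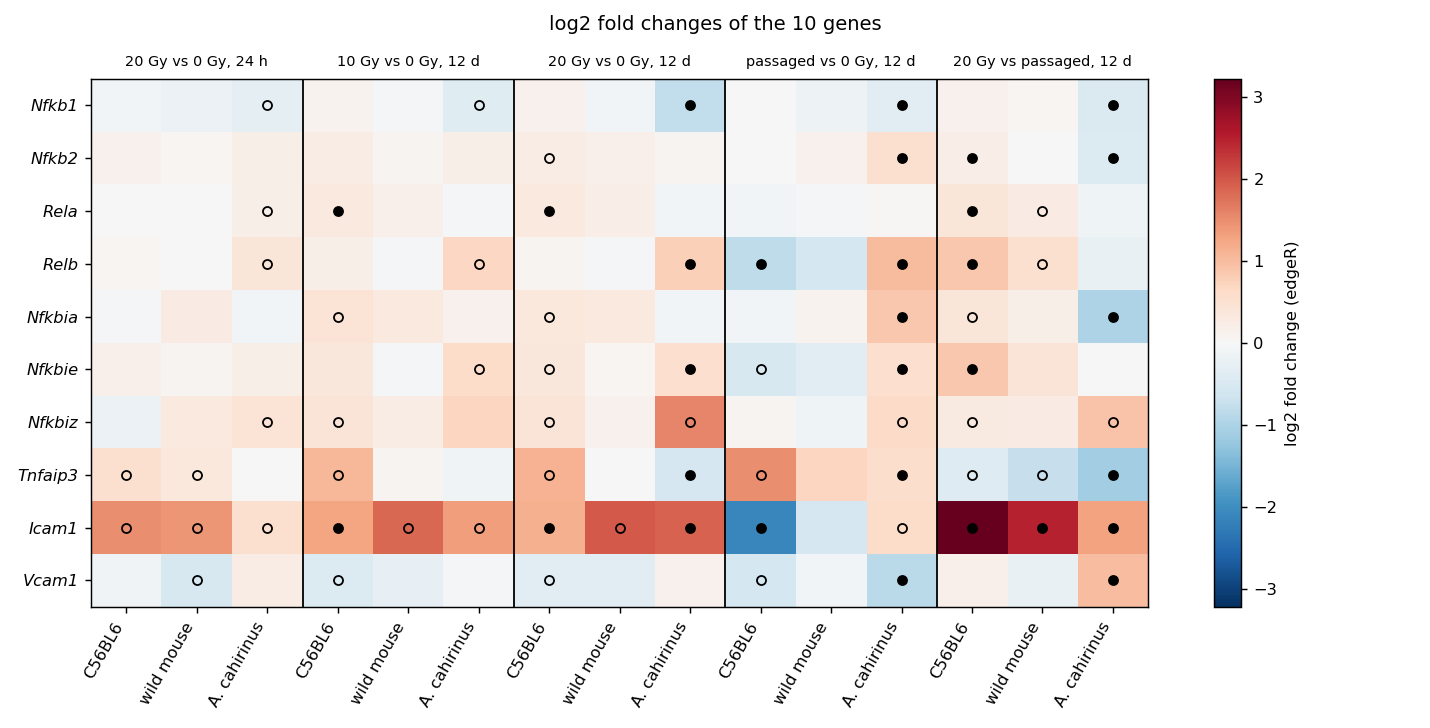
Log2 fold changes of the 10 genes from edgeR without the block, by population, for 20 Gy at 24 h, both doses at 12 d and passaged cells, each against untreated cells, and for 20 Gy against passaged cells. A filled circle marks an adjusted p under 0.05 without the block and an open circle one with the block alone. The Icam1 row is positive for every dose comparison, and the passaged column runs from -2.09 in C56BL6 cells to 0.59 in A. cahirinus for that gene.

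Among the subunits, Nfkb1, whose precursor protein is processed into a DNA-binding subunit, fell in A. cahirinus. Its levels there at 12 d were 41.3, 36.3, 41.8 and 43.9 CPM untreated, 29.1, 28.3, 34.9 and 32.1 CPM at 10 Gy and 21.2, 24.3, 23.9 and 24.9 CPM at 20 Gy. The 3 groups did not overlap, and every 20 Gy library was below every 10 Gy library. The Nfkb1 log2 fold change at 20 Gy was -0.79 ± 0.09 (SE; adjusted p = 0.000667), and it kept its call without each replicate number in turn (adjusted p up to 0.0172). At 10 Gy it was -0.39 ± 0.09 (adjusted p = 0.0576, and 0.00692 with the block). In C56BL6 cells the same 12 d levels were 59.6, 82.0, 77.3 and 84.7 CPM untreated and 51.8, 93.5, 85.3 and 98.2 CPM at 20 Gy, with number 1 lowest in both groups, which overlapped. The log2 fold change was 0.15 ± 0.20 (adjusted p = 0.607), and 0.22 ± 0.08 without number 1 (adjusted p = 0.0621). With the block and without number 1 it passed, at 0.22 ± 0.05 (adjusted p = 0.0128). In wild mouse cells it was -0.09 ± 0.15 (adjusted p = 0.862).

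The difference between populations in this response was itself tested as an interaction on the 18109 symbols found in both tables. The Nfkb1 response in A. cahirinus was lower than in C56BL6 cells by a log2 difference of -0.94 ± 0.23 (adjusted p = 0.013). The call was lost without the libraries numbered 3 (-0.92, adjusted p = 0.131) or 4 (-0.90, adjusted p = 0.0856), and without number 1 it was -0.94 (adjusted p = 0.00175). Against wild mice the difference was -0.70 ± 0.17 (adjusted p = 0.0412), but this fell short of the threshold without number 1 (-0.61, adjusted p = 0.384), 3 (-0.59, adjusted p = 0.206) or 4 (-0.69, adjusted p = 0.221), with RLE size factors (adjusted p = 0.0562) and with no filter (adjusted p = 0.0549).

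Relb, the subunit of the non-canonical dimer, rose in irradiated A. cahirinus cells. At 12 d its untreated libraries were at 12.4, 13.2, 10.7 and 10.8 CPM and its 20 Gy libraries at 18.5, 20.3, 21.1 and 20.2 CPM, with no overlap. Its log2 fold change was 0.77 ± 0.10 (adjusted p = 0.00104), and it passed without each number in turn (adjusted p up to 0.0247). At 10 Gy the libraries were at 18.7, 24.3, 16.01 and 15.3 CPM, all above the untreated ones, and the value missed the threshold without the block (0.66 ± 0.17, adjusted p = 0.084) and passed with it (adjusted p = 0.00387), in one fit of all groups (adjusted p = 0.0168) and by DESeq2 (adjusted p = 0.0101). In C56BL6 cells Relb was at 16.01, 23.7, 20.0 and 20.4 CPM untreated and 13.8, 24.8, 21.9 and 22.2 CPM at 20 Gy, and the groups overlapped (log2 fold change 0.09 ± 0.19, adjusted p = 0.772; 0.14 and adjusted p = 0.282 without number 1). In wild mouse cells number 3 was above the others at both, at 35.6 CPM untreated and 24.2 CPM at 20 Gy. The Relb response in A. cahirinus exceeded that in C56BL6 cells by 0.69 ± 0.22 (adjusted p = 0.0456), which missed the threshold with no filter on low counts (adjusted p = 0.0555) and without number 2 (0.76, adjusted p = 0.0595), 3 (0.65, adjusted p = 0.237) or 4 (0.67, adjusted p = 0.198) and was 0.70 (adjusted p = 0.0182) without number 1.

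Rela, the main activating subunit, rose slightly in C56BL6 cells. At 12 d it was at 84.4, 84.1, 81.7 and 80.1 CPM untreated, 95.8, 97.98, 100.8 and 104 CPM at 10 Gy and 94.5, 104.7, 100.1 and 100.6 CPM at 20 Gy. Both irradiated groups lay wholly above the untreated one. The log2 fold changes were 0.31 ± 0.06 at 10 Gy (adjusted p = 0.00863) and 0.32 ± 0.06 at 20 Gy (adjusted p = 0.00623). At 20 Gy the call was lost without number 2 (0.30, adjusted p = 0.0523), 3 (0.31, adjusted p = 0.0775) or 4 (0.30, adjusted p = 0.0551), and at 10 Gy without number 2 (adjusted p = 0.0574), 3 (adjusted p = 0.116) or 4 (adjusted p = 0.0724). Without number 1 the 20 Gy value was 0.35 (adjusted p = 0.00445). In A. cahirinus the 20 Gy value at 12 d was -0.08 ± 0.07 (adjusted p = 0.4), and the difference from C56BL6 cells was -0.40 ± 0.08 (adjusted p = 0.00435), lost without number 3 (-0.40, adjusted p = 0.0754) or 4 (-0.39, adjusted p = 0.0527). At 24 h Rela in A. cahirinus was higher in 4 of 4 pairs at each dose, and the groups did not overlap. The ratio of means was 1.129 at 10 Gy and 1.141 at 20 Gy, and neither passed without the block.

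Nfkb2, the precursor of the partner of Relb, did not pass in edgeR with all 4 numbers and no block in any dose comparison. With the block it rose by 0.25 ± 0.07 in C56BL6 cells at 12 d and 20 Gy (adjusted p = 0.0212; 0.0232 by DESeq2). Without number 1 and without the block it was 0.29 at 20 Gy (adjusted p = 0.0306) and 0.31 at 10 Gy (adjusted p = 0.0252). In A. cahirinus at 24 h Nfkb2 was higher in 4 of 4 pairs at 10 Gy and in 3 of 4 at 20 Gy, and the groups overlapped. Reads of this gene are the most exposed to its neighbours: its mouse exons overlap those of Psd and of a long noncoding RNA by up to 1933 bases, and the counting ignored strand. In mice Icam1, Vcam1, Nfkb1, Rela, Nfkbia and Tnfaip3 also share 61 to 511 exon bases with an antisense noncoding gene, and reads there cannot be told apart.

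Among the inhibitors, Tnfaip3, a ubiquitin-editing enzyme that shuts the pathway off, was higher in irradiated than untreated C56BL6 cells in every pair and fell in A. cahirinus cells at 20 Gy and 12 d. In wild mouse cells at 24 h and 20 Gy it was also higher in 4 of 4 pairs (0.34 ± 0.27, adjusted p = 1; 0.31 ± 0.09 and adjusted p = 0.0435 with the block; adjusted p = 0.0886 with the block and without number 1). In C56BL6 cells at 12 d it was at 28, 8.95, 8.13 and 6.45 CPM untreated and at 49.3, 23.4, 17.9 and 17.98 CPM at 20 Gy. All 4 pairs were higher, but the groups overlapped through number 1, the library with Krt5 and Krt14 mRNA, which was highest in both. The log2 fold change was 1.12 ± 0.54 (adjusted p = 0.159), 1.23 ± 0.12 with the block (adjusted p = 0.000578), and 1.37 ± 0.16 without number 1 and without the block (adjusted p = 0.00129). At 24 h the log2 fold change at 20 Gy was 0.52 ± 0.34 (adjusted p = 0.7) and 0.55 ± 0.06 with the block (adjusted p = 7.6e-05); without number 1 it was 0.59 (adjusted p = 0.364, and 1.85e-06 with the block).

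In A. cahirinus Tnfaip3 was at 18.1, 17.4, 16.7 and 15.6 CPM untreated at 12 d and at 10.0, 14.4, 10.2 and 11.9 CPM at 20 Gy, wholly below. Its log2 fold change was -0.54 ± 0.12 (adjusted p = 0.0126), lost without number 1 (-0.43, adjusted p = 0.14), 3 (-0.48, adjusted p = 0.119) or 4 (-0.59, adjusted p = 0.0514). The difference between the A. cahirinus and C56BL6 responses was -1.66 ± 0.59 (adjusted p = 0.063), -1.78 ± 0.18 with the block (adjusted p = 0.000114), and -1.80 ± 0.24 without number 1 and without the block (adjusted p = 0.00177). Wild mouse cells showed no common direction at 12 d, with 2 of 4 pairs higher at 20 Gy and a log2 fold change of -0.02 ± 0.30 (adjusted p = 0.985).

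Nfkbia, the classical IkB protein that is made anew each time NF-kB is released, passed the test for dose at 12 d in C56BL6 cells with the block or without number 1, but not with all 4 numbers and no block. Its 12 d levels were 63.2, 25.8, 25.2 and 23.7 CPM untreated and 57.7, 43.3, 37.1 and 31.1 CPM at 20 Gy. Number 1 was highest in both groups and was the 1 pair that was lower. The log2 fold change was 0.34 ± 0.35 (adjusted p = 0.513), 0.43 ± 0.14 with the block (adjusted p = 0.0442) and 0.61 ± 0.12 without number 1 (adjusted p = 0.00758). In wild mouse cells all 4 pairs were higher at 20 Gy (0.31 ± 0.19, adjusted p = 0.524, and 0.0572 with the block). In A. cahirinus 1 of 4 pairs was higher (-0.10 ± 0.15, adjusted p = 0.618).

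Nfkbie, another IkB protein, was a low gene that rose in A. cahirinus from 4.15, 4.27, 4.94 and 3.71 CPM untreated to 6.66, 6.40, 5.97 and 5.89 CPM at 20 Gy and 12 d, with no overlap. Its log2 fold change was 0.55 ± 0.13 (adjusted p = 0.0149), lost without number 1 (0.52, adjusted p = 0.115) or 4 (0.51, adjusted p = 0.0735). In C56BL6 cells it was 0.37 ± 0.25 (adjusted p = 0.303, and 0.0357 with the block). Nfkbiz, a nuclear IkB protein that helps switch on secondary response genes, was at 3.24, 17.5, 5.80 and 4.72 CPM untreated and at 12.0, 49.8, 22.3 and 8.86 CPM at 20 Gy in A. cahirinus at 12 d. All 4 of these pairs were higher at 20 Gy, number 2 was highest in both groups, and the groups overlapped. The log2 fold change was 1.57 ± 0.67 (adjusted p = 0.108; 0.0342 by DESeq2) and with the block 1.56 ± 0.18 (adjusted p = 0.000612). In C56BL6 cells the Nfkbiz value was 0.42 ± 0.34 (adjusted p = 0.387, and 0.0148 with the block), and 0.46 ± 0.13 without number 1 (adjusted p = 0.0308). Other Nfkbiz pairs were mixed or lower. At 10 Gy and 12 d it was higher in 2 of 4 A. cahirinus pairs, and at 24 h in 1 of 4 C56BL6 pairs at each dose.

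**Figure D3:**
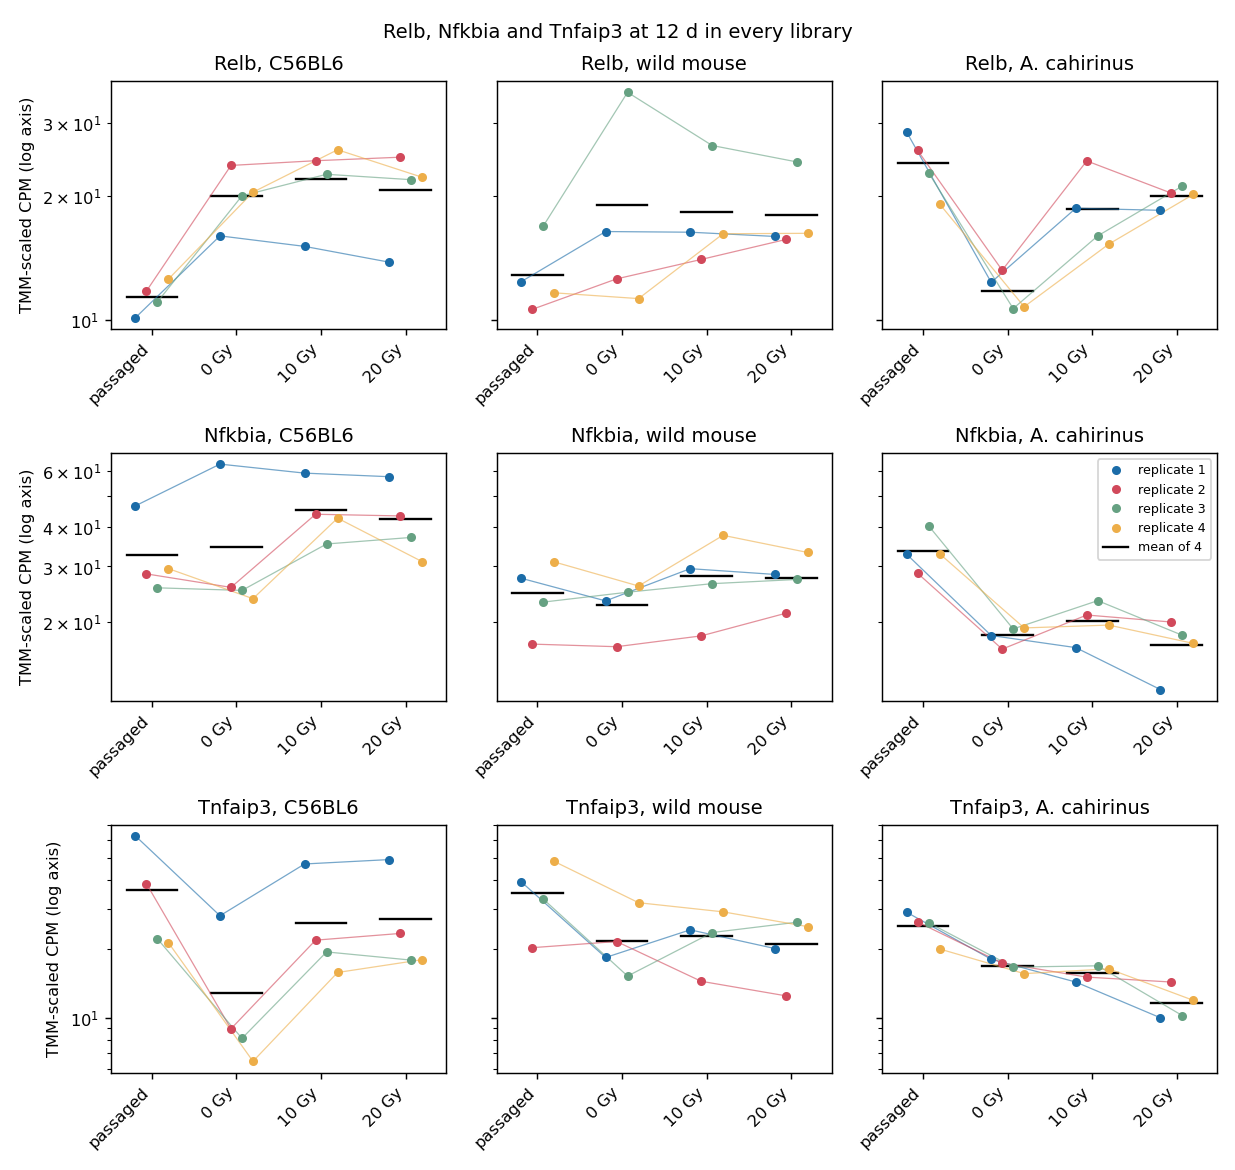
Levels of Relb, Nfkbia and Tnfaip3 (TMM-scaled CPM, log axis) at 12 d in every library, with lines joining libraries of the same replicate number and bars at the mean of 4. Passaged cells of A. cahirinus lie above untreated ones for all 3 genes, while in C56BL6 cells they lie below for Relb, and number 1 (28 CPM untreated) lies above the other C56BL6 libraries for Tnfaip3.

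Of the adhesion targets, Icam1 encodes the ligand of the leukocyte integrins that mediate firm attachment. In C56BL6 cells at 24 h it was at 2.17, 1.77, 2.36 and 1.97 CPM untreated, 2.71, 2.81, 4.70 and 5.68 CPM at 10 Gy and 3.61, 4.28, 7.49 and 7.67 CPM at 20 Gy. Both irradiated groups lay above the untreated one. Wild mouse cells at 24 h had it at 4.76, 4.53, 3.48 and 4.94 CPM untreated, 1.69, 9.15, 11.5 and 7.79 CPM at 10 Gy and 6.06, 13.2, 15.3 and 12.4 CPM at 20 Gy. The 20 Gy group did not overlap with the untreated one, and at 10 Gy only the shallow library numbered 1 was below it. In A. cahirinus at 24 h Icam1 was at 188, 318, 173 and 136 CPM untreated and at 230, 468, 257 and 207 CPM at 20 Gy, where all pairs were higher, number 2 was highest and the groups overlapped.

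None of the 24 h values at 20 Gy passed without the block, and all 3 passed with it. The log2 fold changes were 1.49 ± 0.27 in C56BL6 cells (adjusted p = 0.1, and 7.8e-05 with the block), 1.42 ± 0.29 in wild mouse cells (adjusted p = 0.48, and 0.00308 with the block) and 0.52 ± 0.32 in A. cahirinus (adjusted p = 0.465, and 0.000308 with the block). Without number 1 the C56BL6 value was 1.68 (adjusted p = 0.045) and the wild mouse value 1.67 (adjusted p = 0.252). The A. cahirinus response was smaller than that of C56BL6 cells by a log2 difference of -0.97 ± 0.46 (adjusted p = 0.47; -0.96 ± 0.17 and adjusted p = 0.000946 with the block).

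At 12 d Icam1 was at 8.82, 12.4, 9.96 and 14.2 CPM untreated in C56BL6 cells, 14.8, 36.95, 28.5 and 26.98 CPM at 10 Gy and 16.01, 35.1, 22.6 and 24.5 CPM at 20 Gy. In wild mouse cells it was at 7.56, 6.81, 11.7 and 5.10 CPM untreated and at 31.3, 36.9, 17.1 and 34.5 CPM at 20 Gy. In A. cahirinus it was at 124, 342, 110 and 79.1 CPM untreated and at 548, 988, 622 and 293 CPM at 20 Gy. The irradiated mouse groups lay wholly above the untreated ones, while the A. cahirinus groups overlapped because number 2 was highest throughout and number 4 lowest.

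Icam1 rose at 20 Gy and 12 d in C56BL6 cells (log2 fold change 1.15 ± 0.25, adjusted p = 0.0128) and likewise in A. cahirinus cells (1.91 ± 0.52, adjusted p = 0.0237), and its wild mouse value was 1.97 ± 0.32 (adjusted p = 0.0722, and 0.015 with the block). The C56BL6 call was lost without number 2 (0.97, adjusted p = 0.0577), 3 (1.13, adjusted p = 0.0836) or 4 (1.28, adjusted p = 0.0506) and was 1.20 (adjusted p = 0.004) without number 1. The A. cahirinus call was lost without number 1 (1.85, adjusted p = 0.135) or 3 (1.76, adjusted p = 0.144). The wild mouse value without number 1 was 1.93 (adjusted p = 0.567, and 0.0837 with the block). At 10 Gy the log2 fold changes were 1.28 ± 0.28 (adjusted p = 0.0154; 1.38 and adjusted p = 0.00117 without number 1), 1.84 ± 0.30 (adjusted p = 0.0627) and 1.34 ± 0.66 (adjusted p = 0.277), and each passed with the block, though the wild mouse value did not without number 1 (adjusted p = 0.0562 with the block). The C56BL6 call at 10 Gy was lost without number 2 (adjusted p = 0.0808), 3 (adjusted p = 0.127) or 4 (adjusted p = 0.0661). The 20 Gy libraries were above the 10 Gy ones in 1 of 4 C56BL6 pairs, 2 of 4 wild mouse pairs and 4 of 4 A. cahirinus pairs at 12 d, and in 4, 4 and 2 of 4 pairs at 24 h, and the difference between populations was not tested. The A. cahirinus value at 12 d missed the threshold without the block (0.78 ± 0.16 with the block, adjusted p = 0.0149; 0.59 ± 0.56 and adjusted p = 0.702 without it).

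**Figure D4:**
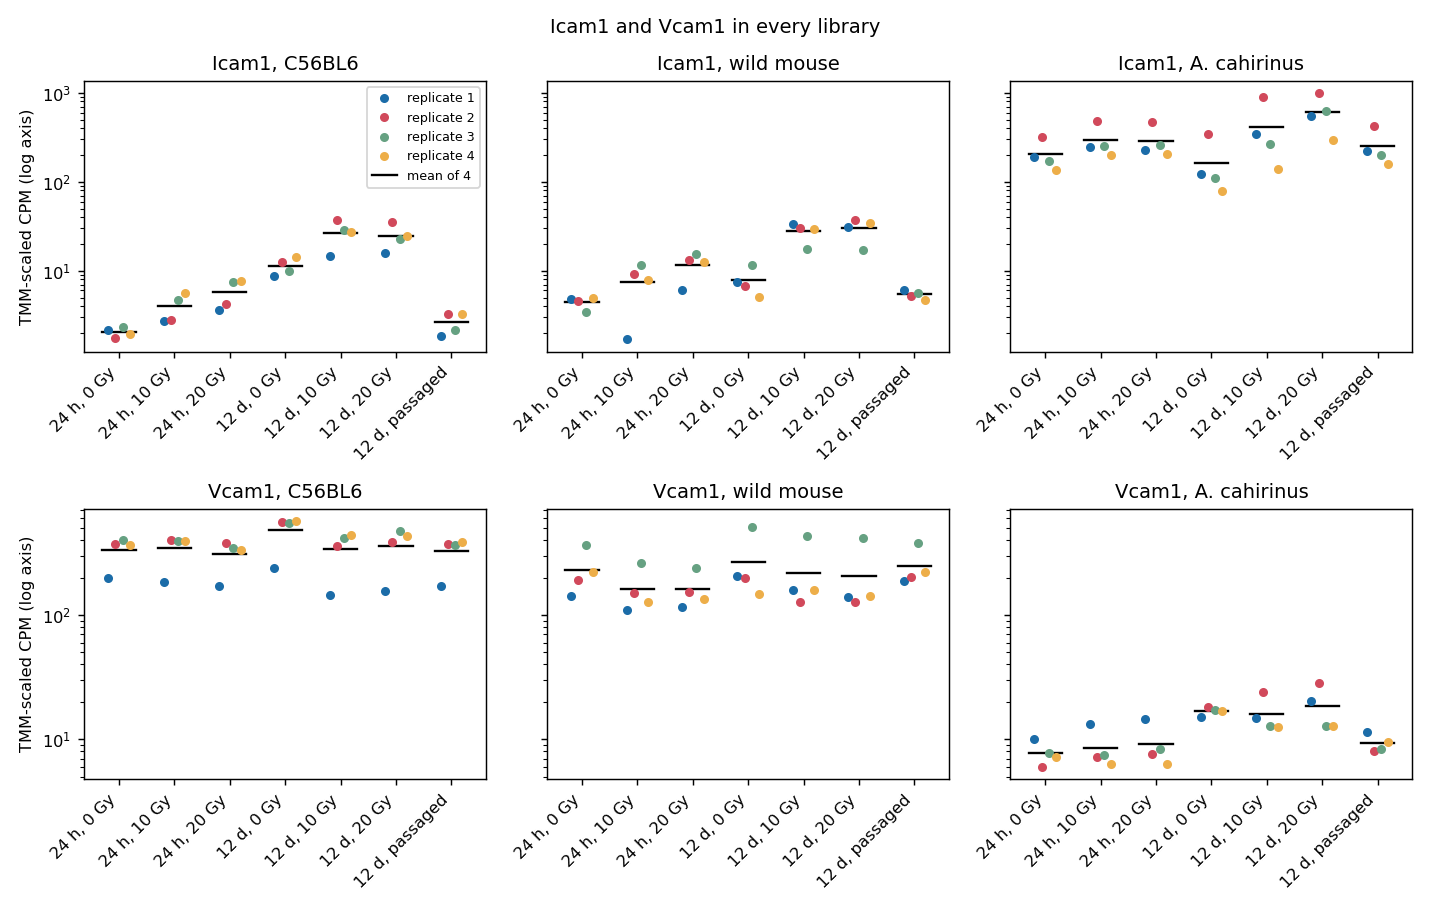
Icam1 and Vcam1 (TMM-scaled CPM, log axis) in every library by population, time and treatment, with a bar at the mean of 4. Icam1 lies higher in irradiated than in untreated libraries of the same number in 47 of 48 pairs, where both doses share their untreated libraries. The C56BL6 library numbered 1 is the lowest for Vcam1 in its groups.

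Vcam1, the ligand of the integrin carried by lymphocytes and monocytes, did not follow Icam1. In mice the irradiated library was lower than the untreated library of the same number in 28 of 32 pairs, and in A. cahirinus in 8 of 16. Both doses again share their untreated libraries. C56BL6 libraries at 12 d were at 239, 560, 545 and 569 CPM untreated and at 155, 387, 472 and 432 CPM at 20 Gy. Number 1 was lowest in both groups, and all 4 pairs were lower. The Vcam1 log2 fold change of -0.37 ± 0.38 did not pass (adjusted p = 0.512), with the block it was -0.40 ± 0.08 (adjusted p = 0.00899), and without number 1 it was -0.34 ± 0.09 (adjusted p = 0.0208). In wild mouse cells the value was -0.34 ± 0.51 (adjusted p = 0.84), where number 3 was highest at 508 CPM untreated and 417 CPM at 20 Gy. Vcam1 fell in wild mouse cells at 24 h and 20 Gy with the block (-0.47 ± 0.09, adjusted p = 0.0055; -0.53 and adjusted p = 0.00246 when number 1 was also left out; adjusted p = 0.993 without the block).

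Passaged cells were compared next. Against untreated cells at 12 d, 2 of 10 genes fell in passaged C56BL6 cells (49.6% of all genes passed), 0 changed in wild mouse cells (10.7%, with 0 at an unadjusted p under 0.05 and 0 by DESeq2), and 5 rose and 2 fell in A. cahirinus (25.8%). The block gave 5, 0 and 9 (60.1%, 31.9% and 49.5%). Without number 1 the C56BL6 count was 4 and the wild mouse count 0. The median log2 fold change of the 10 genes was -0.08, -0.13 and 0.55, beside -0.024, -0.032 and -0.006 over all genes. The C56BL6 median was -0.04 without number 1, near the value over all genes, so its sign decides nothing.

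Icam1 had the most negative of these values in C56BL6 cells. Passaged C56BL6 libraries were at 1.86, 3.27, 2.18 and 3.297 CPM, all far below the 8.82 to 14.2 CPM of the untreated ones (log2 fold change -2.09 ± 0.25, adjusted p = 0.000538; -2.05 without number 1, adjusted p = 0.000258). Passaged wild mouse libraries were at 6.16, 5.22, 5.59 and 4.70 CPM, and the groups overlapped (-0.53 ± 0.26, adjusted p = 0.228). Passaged A. cahirinus libraries were at 224, 424, 200 and 159 CPM and higher than untreated in all 4 pairs (0.59 ± 0.49, adjusted p = 0.405; 0.74 ± 0.11 and adjusted p = 0.00101 with the block). The passage response in A. cahirinus exceeded that in C56BL6 cells by 2.69 ± 0.61 (adjusted p = 0.00546; lost without number 3, 2.60 and adjusted p = 0.0587; 2.58 and adjusted p = 0.0292 without number 1).

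Relb moved in opposite directions. It fell in passaged C56BL6 cells, to 10.2, 11.8, 11.1 and 12.6 CPM (-0.81 ± 0.13, adjusted p = 0.0018; -0.85 and adjusted p = 0.000471 without number 1), and rose in passaged A. cahirinus cells, to 28.6, 25.8, 22.8 and 19.1 CPM (1.01 ± 0.14, adjusted p = 0.00231). Neither passaged group overlapped its untreated group, and both calls passed without each number in turn. The difference was 1.82 ± 0.20 (adjusted p = 7.06e-05; 1.79 without number 1, adjusted p = 0.000297). Nfkbia rose in passaged A. cahirinus cells, from 18.2, 16.5, 19.1 and 19.2 CPM to 32.8, 28.6, 40.3 and 32.9 CPM (0.87 ± 0.11, adjusted p = 0.00192), and was -0.08 ± 0.35 in C56BL6 cells (adjusted p = 0.871; 0.17 without number 1, adjusted p = 0.107).

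Tnfaip3 was higher after passage in all pairs of C56BL6 and A. cahirinus cells. In A. cahirinus it rose from 15.6 to 18.1 CPM untreated to 20.03 to 29.01 CPM (0.56 ± 0.12, adjusted p = 0.0108), a call lost without number 1 (adjusted p = 0.077) or 3 (adjusted p = 0.0906). In C56BL6 cells the passaged libraries were at 62.6, 38.7, 22.2 and 21.4 CPM, higher in all 4 pairs (1.5 ± 0.55, adjusted p = 0.0514; 1.61 ± 0.16 and adjusted p = 0.000367 with the block; 1.82 and adjusted p = 0.000926 without number 1). Nfkb2 rose in passaged A. cahirinus cells by 0.51 ± 0.09 (adjusted p = 0.00516, and 0.0507 without number 3) and Nfkbie by 0.53 ± 0.14 (adjusted p = 0.023, lost without number 1, 3 or 4 with adjusted p up to 0.159). Their responses exceeded those of C56BL6 cells by 0.51 ± 0.12 (adjusted p = 0.00602) and 1.05 ± 0.28 (adjusted p = 0.0127, lost without number 3, adjusted p = 0.0797, or 4, adjusted p = 0.0727). Vcam1 was lower in 4 of 4 passaged C56BL6 pairs (-0.56 ± 0.34, adjusted p = 0.198; -0.55 ± 0.07 and adjusted p = 0.00112 with the block; -0.56 and adjusted p = 0.000501 without number 1). It fell in passaged A. cahirinus cells, from 15.1, 18.3, 17.3 and 16.8 CPM to 11.5, 8.10, 8.30 and 9.51 CPM (-0.87 ± 0.13, adjusted p = 0.0032), and Nfkb1 fell by 0.34 ± 0.09 on the log2 scale (adjusted p = 0.0241, lost without number 1, 3 or 4 with adjusted p up to 0.144).

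Set against passaged cells, 20 Gy cells at 12 d had 5 of 10 genes higher in C56BL6 cells (41.6% of all genes passed), 1 higher in wild mouse cells (10.5%), and 2 higher and 4 lower in A. cahirinus (42.5%). The block gave 8, 4 and 7 (56.1%, 38% and 56%). This comparison shares its 20 Gy libraries with the one against untreated cells. Icam1 was higher in all populations: 3.22 ± 0.29 in C56BL6 cells (adjusted p = 0.000125; 3.25 without number 1), 2.49 ± 0.25 in wild mouse cells (adjusted p = 0.00577; 2.52 and adjusted p = 0.0816 without number 1; 2.35 and adjusted p = 0.0632 without number 4) and 1.29 ± 0.40 in A. cahirinus (adjusted p = 0.0294; lost without number 1, adjusted p = 0.139, or 3, adjusted p = 0.142). In C56BL6 cells Rela (0.38 ± 0.06), Relb (0.87 ± 0.18), Nfkbie (0.86 ± 0.24) and Nfkb2 (0.22 ± 0.07) were also higher, the latter 2 calls being lost without number 2, 3 or 4. In A. cahirinus Vcam1 was higher (1.0 ± 0.27; adjusted p = 0.0784 without number 1), and Tnfaip3 (-1.12 ± 0.15), Nfkbia (-0.99 ± 0.17), Nfkb1 (-0.47 ± 0.10) and Nfkb2 (-0.43 ± 0.11) were lower. The Nfkb1 and Nfkb2 calls were lost without number 1 or 3. Tnfaip3 was lower in all 4 pairs of each mouse population too (C56BL6 -0.41 ± 0.44, adjusted p = 0.49, and 0.00676 with the block; wild mouse -0.73 ± 0.31, adjusted p = 0.184, and 0.00382 with the block).

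Counts of differences between populations were as follows. For the 20 Gy response at 12 d, 3 of 10 genes differed between A. cahirinus and C56BL6 cells (18.8% of shared genes; 6 with the block, 38.1%), 1 between A. cahirinus and wild mice (3.23%; 2 with the block, 23.5%) and 0 between wild and C56BL6 mice (0%, with 0 at an unadjusted p under 0.05 and by DESeq2; 0 with the block, 0.101%). For the 24 h response the counts were 0, 0 and 0 (2.08%, 0% and 0%), with 1, 0 and 0 at an unadjusted p under 0.05 and 0 by DESeq2, and 3, 2 and 0 with the block (16.8%, 7.39% and 0.647%). For the passage response 4 differed between A. cahirinus and C56BL6 cells (27.5%; 7 with the block, 45.2%) and 0 between A. cahirinus and wild mice (3.49%, with 3 at an unadjusted p under 0.05 and 2 by DESeq2; 5 with the block, 23.8%). Untreated wild and C56BL6 cells differed in 1 of 10 genes at 24 h (5.7%) and in 0 at 12 d (2.93%, with 0 at an unadjusted p under 0.05 and by DESeq2). That gene was Icam1, higher in wild mice by 1.11 ± 0.20 (adjusted p = 0.0179), a call lost without any 1 of the 4 numbers (adjusted p 0.0518 to 0.134).

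The pathway around these genes was described through 74 listed genes that are not among the 10. At 12 d and 20 Gy, 17 rose and 10 fell of 64 tested in C56BL6 cells (26.5% of all genes passed), 0 changed of 62 in wild mouse cells (0.0694%; 10 rose and 8 fell with the block, where 15.4% passed), and 16 rose and 6 fell of 65 in A. cahirinus (31.8%), with medians of 0.04, -0.01 and 0.19. In C56BL6 cells 9 rose and 4 fell without number 2, 9 and 1 without number 3 and 10 and 4 without number 4. In A. cahirinus 7 rose and 3 fell without number 1, 5 and 3 without number 3 and 9 and 3 without number 4. Of the adhesion molecules and their ligands 6 of 12 rose in C56BL6 cells and 6 of 14 in A. cahirinus, and of 20 receptors and adaptors 2 rose and 7 fell in C56BL6 cells. The most changed genes by log2 fold change were Cd40, Pecam1 and Itgb7 in C56BL6 cells and Icam4, Pecam1 and Rel in A. cahirinus, all at low levels, and the Icam4 call was lost without number 3 (adjusted p = 0.0548). Cd40, a TNF-family receptor, was at 0 in 3 of 4 untreated C56BL6 libraries and at 0.485 to 0.654 CPM at 20 Gy. Pecam1, an endothelial and leukocyte adhesion protein, rose by 3.44 ± 0.34 in C56BL6 cells and 3.42 ± 0.55 in A. cahirinus (adjusted p = 0.00106 and 0.00265), at no more than 2.04 CPM. In wild mouse cells, without a call, Pecam1 was at 0 to 0.134 CPM untreated and at 0.483 to 1.01 CPM at 20 Gy. Cd40 was there at 0 to 0.0921 CPM untreated and at 0.298 to 1.13 CPM at 20 Gy. Rel, the remaining family member, rose by 3.05 ± 0.41 in A. cahirinus (adjusted p = 0.00131), from 0.0296 to 0.101 CPM untreated to 0.363 to 0.539 CPM at 20 Gy.

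After passage, 15 of the listed genes rose and 22 fell of 60 in C56BL6 cells (49.6% of all genes passed), 4 rose and 1 fell of 58 in wild mouse cells (10.7%), and 15 rose and 5 fell of 59 in A. cahirinus (25.8%), with medians of -0.31, -0.21 and 0.05. In C56BL6 cells 9 rose and 11 fell without number 2, 8 and 11 without number 3 and 10 and 13 without number 4. Of the wild mouse genes 0 passed without number 1 or 4, 2 rose without number 2, and 4 rose and 4 fell without number 3. In A. cahirinus 4 rose and 0 fell without number 1, 4 and 1 without number 3 and 7 and 2 without number 4. The acute-phase gene Saa3 fell by 10.25 ± 1.75 on the log2 scale in C56BL6 cells (adjusted p = 0.00218), where its untreated libraries spanned 11.5 to 1029 CPM, number 1 being lowest, and its passaged ones 0 to 1.16 CPM. Lcn2, an iron-binding defence protein, fell by 6.95 ± 1.08 in C56BL6 cells (adjusted p = 0.00147) and by 2.04 ± 0.58 in A. cahirinus (adjusted p = 0.0341; lost without number 1, 3 or 4, adjusted p up to 0.144). Selp, an adhesion receptor of platelets and endothelium, rose by 3.33 ± 0.66 in C56BL6 cells (adjusted p = 0.00405) and by 2.73 ± 0.61 in A. cahirinus (adjusted p = 0.0144; lost without number 1 or 3, adjusted p = 0.082 and 0.0834). Its passaged C56BL6 libraries were at 9.94, 2.05, 2.33 and 2.07 CPM, number 1 being highest, and without number 1 the rise was 2.40 (adjusted p = 0.00096). In A. cahirinus the third gene was Csf1, the macrophage growth factor (1.85 ± 0.33, adjusted p = 0.00625; adjusted p = 0.0681 without number 1), which also rose in wild mice (1.67 ± 0.41, adjusted p = 0.041) beside the integrin gene Itgb7 (3.66 ± 0.94, adjusted p = 0.0466) and the IkB kinase gene Chuk (0.85 ± 0.19, adjusted p = 0.0304). Passaged wild mouse libraries had Itgb7 at 0.917, 6.80, 1.19 and 0.843 CPM, and without number 2 its value was 2.24 (adjusted p = 0.113). All 3 wild mouse calls were lost without number 1, 2 or 4 (adjusted p up to 0.229), and that of Itgb7 also without number 3 (adjusted p = 0.0569).

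Genes whose pattern was most like 3 of the 10 were found by Pearson correlation of log2 CPM over the 28 libraries of each population, after subtracting the mean of each time, ranked by the lowest of the 3 populations among 8991 genes. Libraries share animals and depth, so the values are a description without a test. For Icam1 these were Homer3 (r of 0.77 in C56BL6, 0.77 in wild mice and 0.87 in A. cahirinus), Polk (0.74, 0.73 and 0.78) and Tax1bp1 (0.76, 0.70 and 0.77). For Vcam1 they were Chp1, Slc35a1 and Gpr153, with r of at least 0.63, and for Nfkbia Gfus, Rrs1 and Utp3, with r of at least 0.62. Between Icam1 and Vcam1 r was 0.22, -0.20 and 0.28, and between Icam1 and Nfkb1 it was 0.27, 0.23 and -0.83.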

How the data were processed

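Gene counts were deposited by the authors as whole-number read counts, made with featureCounts 2.0.3 per the file headers, with no option set for strand; Trim Galore and HISAT2 are named in the submitters' processing notes, with versions not given in the sources used here. The mouse table used an Ensembl release 108 annotation of GRCm39 and the A. cahirinus table its own annotation, per the file headers. All 84 columns (56 mouse and 28 A. cahirinus) were matched to samples by name, and 56236 of 56980 mouse identifiers had a symbol. Library totals were 26.7 to 39.8 M counts in C56BL6, 17.4 to 36.0 M in wild mouse and 25.6 to 52.9 M in A. cahirinus cells.

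Each population, time and pair of treatments was fitted separately in R 4.3.3 with edgeR 4.0.16 (filterByExpr, TMM scaling, quasi-likelihood test, two-sided, Benjamini-Hochberg adjustment over all genes tested, threshold 0.05). Differences between populations were interaction terms in one fit over the symbols shared by the tables. Alternatives were DESeq2 1.42.0, RLE size factors, no filter, one fit of all groups, the replicate number as a block, and each number left out. Leaving out number 1 together with the block was added after the data had been seen. CPM are TMM-scaled. The fits were tested on simulated data.

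The replicate numbers pair the libraries, since each number has one animal code in the library names; same-numbered libraries deviated together in all 21 comparisons (mean r 0.57 to 0.93, lowest pair 0.43, against -0.30 to -0.12 for different numbers). Variation in all 126 replicate pairs within groups was at least 7.95 times the sampling noise, so no library was counted as deposited more than once within its group. Pairs of libraries from different groups were not checked in this way. The check says nothing about whether libraries share an animal.

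The members and lists were chosen with earlier results of these data known. Besides the 10 members, the text names up to 3 listed pathway genes per comparison, those past the threshold with the largest log2 fold change, and the 3 genes most alike in pattern to Icam1, Vcam1 and Nfkbia.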

Additional observations from a re-analysis of the deposited data

Results flagged for a closer look

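Of 210 groups of 4 libraries (10 genes in 21 groups), 25 had 1 library far from the other 3, by Dixon's 95% limit on the gap over the range in CPM. Chance alone gives about 1 in 20 groups. C56BL6 number 1, the animal whose libraries held Krt5 and Krt14 mRNA, accounts for 10 of them. At 24 h it was lowest for Relb at 20 Gy (7.14) and Vcam1 at 10 Gy (183) and highest for Nfkbia at 10 Gy (29.8). At 12 d it was lowest for Nfkb1 (52.1), Nfkb2 (52.1) and Nfkbiz (34.4) at 10 Gy and for Vcam1 untreated (239) and passaged (172), and highest for Nfkbia (63.2) and Tnfaip3 (28) untreated.

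In wild mice number 3 was highest for Vcam1 at 12 d in untreated (508), 10 Gy (428) and 20 Gy (417) cells, for Relb at 20 Gy and 12 d (24.2) and for Nfkbiz untreated at 24 h (133). Number 2 was highest for Nfkb1 untreated at 12 d (90.3), Rela untreated at 24 h (122) and at 10 Gy and 12 d (120), and Nfkbie at 20 Gy and 12 d (10.2). Number 4 was highest for Relb at 20 Gy and 24 h (12.9), and the shallow library numbered 1 was lowest for Nfkb1 at 10 Gy and 24 h (22.8). In A. cahirinus number 1 was highest at 24 h and 10 Gy for Nfkbie (11.3) and Vcam1 (13.2), and number 2 at 12 d for Nfkbiz at 10 Gy (33.9) and Icam1 untreated (342).

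Responses that differed between populations by the interaction test at 12 d were, for 20 Gy in A. cahirinus minus C56BL6 cells, Nfkb1 (-0.94), Rela (-0.40) and Relb (0.69) on the log2 scale, and for A. cahirinus minus wild mouse cells Nfkb1 (-0.70). For passage in A. cahirinus minus C56BL6 cells they were Nfkb2 (0.51), Relb (1.82), Nfkbie (1.05) and Icam1 (2.69).

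In 20 Gy against passaged cells, Nfkb2, Rela and Nfkbia were higher in all 4 C56BL6 pairs, and Rela and Nfkbia in all 4 wild mouse pairs, while all 3 genes were lower in all 4 A. cahirinus pairs. This difference was not tested. The log2 fold change in C56BL6 cells exceeded that in A. cahirinus by 0.65 for Nfkb2, 0.52 for Rela and 1.38 for Nfkbia, and in wild mouse cells by 0.40 for Rela and 1.17 for Nfkbia.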

How the results depend on the processing

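Time and batch cannot be told apart, 4 animals per group limit the precision, and calls depended most on the block and on single numbers. Values below are numbers of the 10 genes called, given here without the share over all genes. DESeq2 gave 3 (A. cahirinus) and 1 (wild mouse) at 10 Gy and 12 d, 1 in wild mouse cells at 20 Gy and 12 d, 1 each in C56BL6 and wild mouse cells at 20 Gy and 24 h, 1 for 20 against 10 Gy in A. cahirinus and 2 for passage in A. cahirinus minus wild mouse cells. One fit of all groups gave 3, 1, 1 and 1 for the first, the second, the wild mouse 20 Gy and the 20 against 10 Gy of these. RLE factors and no filter each gave 0 for the 12 d difference between A. cahirinus and wild mice at 20 Gy.

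With the replicate block the counts for C56BL6, wild mouse and A. cahirinus cells that moved were 2, 3 and 5 at 20 Gy and 24 h, 2 (C56BL6) and 5 (A. cahirinus) at 10 Gy and 24 h, 8 and 1 (mice) at 20 Gy and 12 d, 6, 1 and 4 at 10 Gy and 12 d, 4 for 20 against 10 Gy in A. cahirinus, 5 for passage in C56BL6 cells, and 8 and 4 (mice) for 20 Gy against passaged cells. The differences of A. cahirinus from C56BL6 and wild mouse cells were then 3 and 2 at 24 h, 6 and 2 at 12 d, and 7 and 5 for passage. Without number 1 and with the block, C56BL6 counts were 3 at each dose at 24 h, 7 and 9 at 10 and 20 Gy at 12 d, 5 for passage and 10 for 20 Gy against passaged cells; wild mouse counts were 3 at each dose at 24 h and 3 against passaged cells. The differences were 4 (C56BL6) and 2 (wild mice) at 24 h, 6 and 0 at 12 d, 8 and 4 for passage, and 2 between wild and C56BL6 mice at 24 h.

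Leaving out each number in turn gave 0 to 3 (A. cahirinus), 0 to 7 (C56BL6) and 0 to 1 (wild mouse) at 10 Gy and 12 d, 2 to 6, 0 to 7 and 0 to 1 at 20 Gy and 12 d, 0 to 1 in C56BL6 cells at 20 Gy and 24 h, and 0 to 2 for 20 against 10 Gy in A. cahirinus. It gave 2 to 6, 3 to 7 and 0 to 2 for 20 Gy against passaged cells, 3 to 8 (A. cahirinus) and 2 to 4 (C56BL6) for passage, 0 to 4 (from C56BL6) and 0 to 1 (from wild mice) for the A. cahirinus difference at 12 d, 2 to 7 and 0 to 1 for its passage difference, and 0 each time for untreated wild against C56BL6 mice at 24 h. The cause was not tested. No called value changed sign. Of 1898 values not called, 123 did, at no more than 0.188 on the log2 scale. Of the same 1898 values, 19 were called under the alternative, counted whether or not their sign changed.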
